A study of Mus musculus with 18 samples.

Results

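The comparison described here sets neocortical layers 5-6 (L5-6) of mice electroporated with FOXP2 against L5-6 of mice electroporated with GFP alone. Its members were chosen from the sample titles and are 6 of the 18 libraries of the series: GFP mice 1, 2 and 3 on the control side, and moFoxp2 mouse 1 with huFOXP2 mice 1 and 2 on the FOXP2 side. All were outbred CD-1 mice, electroporated in utero at E14.5 and dissected on postnatal day 7 from 300 µm sagittal sections, with the tissue of a layer pooled within each mouse. In utero electroporation drives plasmid DNA by electric pulses from the ventricle into the cells lining it. Per the labels, the controls received an empty plasmid and the others human FOXP2 (huFOXP2) or mouse Foxp2 (moFoxp2) cDNA, and every group carried Gfp cDNA. The labels call the L5-6 cells GFP-negative and the layer 4 (L4) cells GFP-positive. They also call both L5-6 and layers 2-3 (L2-3) infragranular. The moFoxp2 side is a single mouse. Judged from the levels of Xist and of Y-linked genes in these libraries, 1 mouse in each arm was female. The libraries are bulk RNA of mixed tissue, in which fewer cells of a type and less RNA per cell cannot be told apart.

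Foxp2 encodes a forkhead transcription factor, a protein that binds DNA through a winged-helix domain and acts mostly as a repressor, alone or paired with its relatives Foxp1 and Foxp4. In the neocortex it is known as a marker of layer 6 corticothalamic neurons, which send axons to the thalamus. Mutations of human FOXP2 impair speech, and the adhesion protein Cntnap2 and the transcription factor Mef2c are among its reported targets.

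The 6 libraries held between 12704557 and 21462671 counts. GFP mouse 1 stood apart from the other controls: chi-square over its degrees of freedom was 54.3 and 37.3 for the pairs that held it and 8.71 to 12.4 for the 4 other replicate pairs. In that library 7.5% of counts came from mitochondrially encoded genes, against 4.20% to 5.01% in the other 5. A second library, huFOXP2 mouse 1, held 37 counts of the photoreceptor gene Crx, where the other 5 held 0. No libraries were identical. The calls of Gm6166 and Rpsa-ps10 described below held without either of these libraries.

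Foxp2 marked the dissection. On the scale of all 18 libraries it stood at 52.5 to 68.6 CPM (counts per 1000000 counts of a library) in L5-6 of GFP mice, against 5.39 to 8.75 CPM in L4 and 1.77 to 6.54 CPM in L2-3 of the same animals. Within L5-6 its level was 63.8, 69.3 and 53.4 CPM in GFP mice 1 to 3, 70.6 CPM in the moFoxp2 mouse, and 40.1 and 78.9 CPM in huFOXP2 mice 1 and 2. The huFOXP2 mice held both the lowest and the highest library, and the groups overlapped, with a log2 fold change of 0.02 ± 0.23 (± SE, n = 3 against 3, edgeR adjusted p = 0.976). The counts do not tell plasmid-derived reads from those of the mouse gene itself (ENSMUSG00000029563.16, mm10 chromosome 6, 14901349 to 15441977). Leaving out moFoxp2 mouse 1, GFP mouse 3 or huFOXP2 mouse 2 put the difference below 0, between -0.16 and -0.05. Its partners lay as close, Foxp1 at 0.08 ± 0.16 (142 to 210 CPM in GFP mice and 178 to 216 CPM in FOXP2 mice) and Foxp4 at 0.05 ± 0.16 (43.6 to 66.4 and 51.2 to 60.6 CPM). Without GFP mouse 1 both differences were below 0, at -0.08 and -0.07. Foxp3 was too low to test.

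The effect on Foxp2 in L5-6 differed from that in the other layers. In L4 it stood at 34.8, 33.3 and 64.9 CPM in the FOXP2 mice (moFoxp2 mouse 1, huFOXP2 mice 1 and 2), all above the GFP mice given above. The FOXP2 effect in L5-6 minus that in L4 was -2.71 ± 0.34 (edgeR with the mouse as a block, adjusted p = 0.0278), and Foxp2 was the 1 of 15952 genes that passed this test (0.00627%). Without the mouse block, and without GFP mouse 2, huFOXP2 mouse 1 or huFOXP2 mouse 2, 0 genes passed. Without GFP mouse 3 the 1 gene that passed differed in the positive direction, and without the moFoxp2 mouse 2 genes passed, 1 in each direction. Against L2-3, where the FOXP2 mice had 21.2, 20.2 and 52.3 CPM, the difference was -2.72 ± 0.35 (adjusted p = 0.0084). This call too was lost without the mouse block (0 genes) and without huFOXP2 mouse 1 (1 gene, in the positive direction).

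Of 15330 genes tested between FOXP2 and GFP mice in L5-6, 3 passed an edgeR adjusted p of 0.05 (0.0196%), 2 higher (0.013%) and 1 lower (0.00652%) in FOXP2 mice. Each is annotated as a processed pseudogene, a copy of a messenger RNA inserted back into the genome. At an unadjusted p under 0.05, 946 genes passed (6.17%), 305 higher (1.99%) and 641 lower (4.18%). FOXP2 and GFP libraries did not overlap for 2070 genes (13.5%), 1001 of them higher (6.53%) and 1069 lower (6.97%) in FOXP2 mice. The median difference over all genes was -0.01, with 48.9% of genes above 0 and 51.1% below. Replicates were separate mice, so the tests measure spread between animals.

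**Figure D1:**
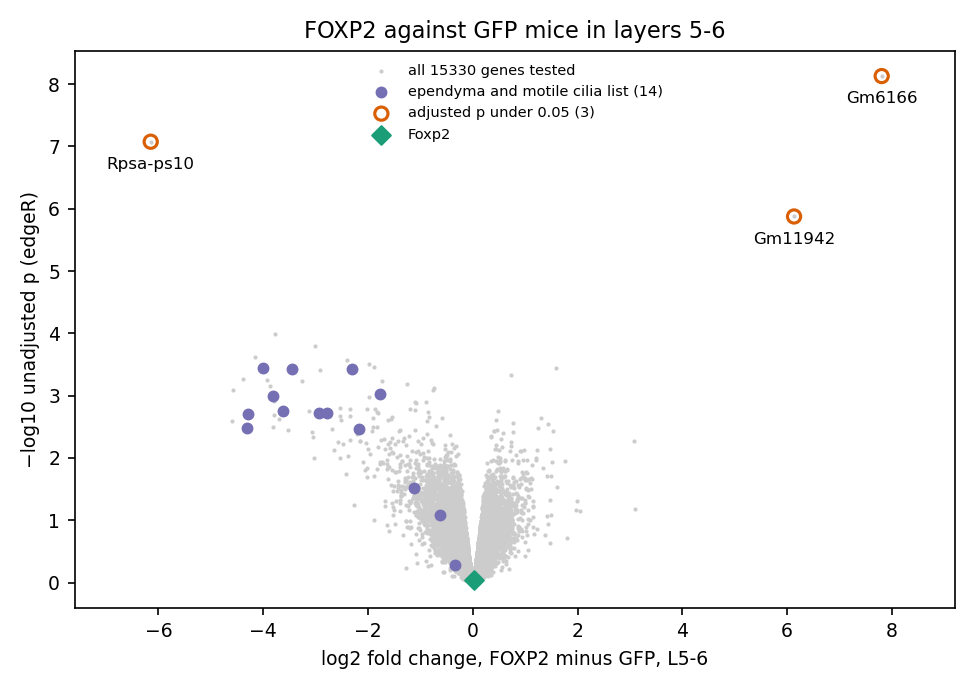
Log2 fold change (FOXP2 minus GFP, x axis) against −log10 of the unadjusted edgeR p (y axis) for the 15330 genes tested in L5-6 (grey), with the 14 ependyma and motile cilia genes in purple, the 3 genes past an adjusted p of 0.05 circled and Foxp2 as a green diamond. The 3 circled pseudogenes lie far from all other genes, all 14 cilia genes lie left of 0, and Foxp2 lies at 0.02.

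Gm6166 (ENSMUSG00000074280.6, chr9:57483963-57484371, plus strand) is a copy of Fabp5, which encodes a fatty acid-binding protein. It stood at 0.456, 0.189 and 0.0519 CPM in GFP mice 1 to 3, and at 47.8, 50.7 and 45.6 CPM in the moFoxp2 mouse and huFOXP2 mice 1 and 2. Every FOXP2 mouse held a level near the others and every GFP mouse a level near 0. Gm6166 rose by 7.81 ± 0.32 on the log2 scale (adjusted p = 0.000114).

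Gm11942 (ENSMUSG00000094344.1) is a copy of Rplp1, which encodes an acidic protein of the large ribosomal subunit stalk. It stood at 0.531, 0.284 and 0.208 CPM in GFP mice and at 16.9, 36 and 16.3 CPM in FOXP2 mice, highest in huFOXP2 mouse 1 and without overlap between groups. Gm11942 was higher in FOXP2 mice by 6.13 ± 0.48 (edgeR adjusted p = 0.00681). By edgeR its call was lost without GFP mouse 2 (adjusted p = 0.0533) and without both GFP mouse 3 and the moFoxp2 mouse (0.0801). Over all alternatives, DESeq2 included, the adjusted p ran from 1.54e-31 to 0.0801. The FOXP2 effect on Gm11942 in L5-6 minus that in L4 was -0.93 ± 0.55, and minus that in L2-3 -0.43 ± 0.49. Neither passed (edgeR with the mouse as a block, adjusted p = 0.803 and 0.593).

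Rpsa-ps10 (ENSMUSG00000047676.6, chr3:150072658-150073542, minus strand) is a copy of Rpsa, which encodes a protein of the small ribosomal subunit that is also known as a laminin receptor. It stood at 297, 229 and 131 CPM in GFP mice and at 3.06, 3.37 and 2.84 CPM in FOXP2 mice. The GFP mice differed among themselves by more than the FOXP2 mice did, but the groups lay far apart. Rpsa-ps10 was lower in FOXP2 mice by 6.15 ± 0.34 (edgeR adjusted p = 0.000645). The FOXP2 effect on it in L5-6 minus that in L4 was -0.41 ± 0.16, and minus that in L2-3 -0.50 ± 0.15. Only the second passed (edgeR with the mouse as a block, adjusted p = 0.803 and 0.0407). That call was lost without the mouse block (0 genes passed) and without huFOXP2 mouse 1 (1 gene, in the positive direction).

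How nearly these copies match their parents bears on which gene a read is counted for. The first 300 bases of the annotated transcripts of Gm6166 and Rpsa-ps10 follow, 5′ to 3′, from GENCODE M21 (GRCm38), with capitals at the bases that differ from the parent messenger RNA. Gm6166 is shown from chr9:57483963-57484262 (plus strand) and Rpsa-ps10 from chr3:150073243-150073542 (minus strand).
Gm6166: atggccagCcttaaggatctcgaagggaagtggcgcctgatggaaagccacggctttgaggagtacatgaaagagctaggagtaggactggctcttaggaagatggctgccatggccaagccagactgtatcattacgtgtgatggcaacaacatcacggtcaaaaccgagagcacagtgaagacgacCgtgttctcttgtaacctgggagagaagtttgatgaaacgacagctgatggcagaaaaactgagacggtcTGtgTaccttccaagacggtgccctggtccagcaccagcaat
Rpsa-ps10: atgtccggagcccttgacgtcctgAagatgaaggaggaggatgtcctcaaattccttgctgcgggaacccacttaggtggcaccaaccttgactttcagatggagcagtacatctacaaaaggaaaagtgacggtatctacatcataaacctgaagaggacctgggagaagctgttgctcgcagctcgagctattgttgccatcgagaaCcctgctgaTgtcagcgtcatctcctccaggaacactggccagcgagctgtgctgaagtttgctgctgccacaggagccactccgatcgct
The printed stretches hold 5 and 3 such bases. Over the whole transcript, Gm6166 was 98.3% identical to Fabp5 (5 mismatches and 1 gap in 409 aligned bases), Gm11942 97.4% identical to Rplp1 (9 mismatches in 345) and Rpsa-ps10 99.3% identical to Rpsa (6 mismatches in 885).

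The parent genes were set beside their copies, on CPM of unscaled library totals. Fabp5 stood at 236, 222 and 244 CPM in GFP mice and 197, 207 and 193 CPM in FOXP2 mice. Fabp5 was lower in every FOXP2 mouse than in every GFP mouse. Summed over Fabp5, Gm6166 and the 3 other relatives of at least 90% identity, the level was 237, 222 and 244 CPM in GFP mice and 245, 257 and 239 CPM in FOXP2 mice, so the summed groups overlapped. In the edgeR test Fabp5 itself differed by -0.21 ± 0.09 and did not pass (adjusted p = 0.713).

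Rplp1 stood at 686, 526 and 585 CPM in GFP mice and at 617, 613 and 547 CPM in FOXP2 mice. With Gm11942 and the other relatives added, the sums were 687, 527 and 586 CPM against 635, 649 and 564 CPM, which overlapped between groups. The Rpsa relatives differed from this pattern. Rpsa had 779, 564 and 611 CPM in GFP mice and 589, 556 and 521 CPM in FOXP2 mice, while the sum over all 15 relatives was 1089, 792 and 743 CPM against 594, 561 and 526 CPM. The sum was lower in every FOXP2 mouse than in every GFP mouse, and Rpsa alone overlapped (-0.20 ± 0.13, edgeR adjusted p = 0.713). No other relative exceeded 1.21 CPM in any library. The counts do not separate reads of a copy from reads of a parent assigned to it, so the level of each of these near-identical genes is uncertain.

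**Figure D2:**
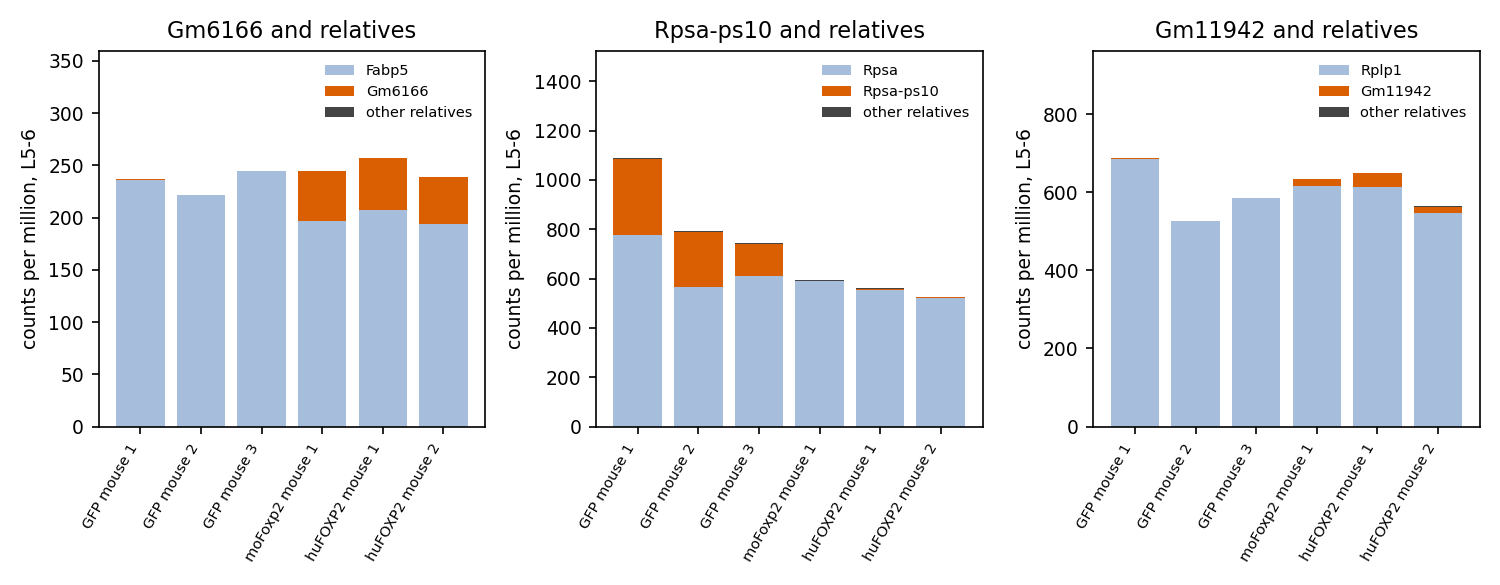
Stacked bars of CPM of unscaled totals in each L5-6 library (y axis) for the 3 pseudogenes that passed (orange), their parent genes (blue) and all other relatives (black), with mice on the x axis. The Fabp5 and Rplp1 bars have like total heights in both groups, 222 to 257 and 527 to 687 CPM, while the Rpsa bars are lower in the 3 FOXP2 mice.

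Of 39 gene lists, chosen with earlier results of these data known, that of ependyma and motile cilia had the median furthest from 0. Ependymal cells line the brain ventricles and beat motile cilia that move cerebrospinal fluid. Foxj1, a forkhead transcription factor known to switch on the motile cilia programme, leads the list, which also holds dyneins, a radial spoke protein, a tektin and other genes expressed in these cells. All 14 members were tested, 14 of 14 lay below 0 (51.1% of all genes did), and 12 of 14 were lower in FOXP2 mice without overlap (6.97% of all genes). The median difference was -2.86 against -0.01 over all genes. By edgeR 0 of 14 passed the adjusted threshold (0.0196% of all genes). At an unadjusted p under 0.05, 12 of 14 were lower (4.18% of all genes). DESeq2 called 10 of 14, all lower, where it called 56 of all 15330 genes, 50 of them lower. Of the 14, 8 reached the low-count limit of 0.606 CPM in GFP libraries only, as 61 of all 15330 genes did. The median and counts above include these 8, which the filter kept through the group where they are high. No member was lost to that filter.

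Foxj1 (ENSMUSG00000034227.7, chromosome 11, 116330704 to 116335399) stood at 28.2, 13.7 and 10.7 CPM in GFP mice and at 2.91, 2.96 and 4.62 CPM in FOXP2 mice. The lowest control was above the highest FOXP2 mouse, and GFP mouse 1 was the highest of all. The difference was -2.30 ± 0.39 and did not pass (edgeR adjusted p = 0.422, with a range of 1.17e-08 to 0.926 over the alternatives). It was called by DESeq2 (adjusted p = 5.46e-06) and in the fit over 18 libraries (0.0132). Without GFP mouse 1 it was -1.79 ± 0.24 (adjusted p = 0.221).

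The dynein genes that follow, among them axonemal motors of ciliary beating, had the same order of mice among the controls. Dnah12, an axonemal dynein heavy chain, stood at 3.49, 1.89 and 1.30 CPM in GFP mice and at 0, 0.207 and 0.167 CPM in FOXP2 mice (-4.01 ± 0.68, edgeR adjusted p = 0.422). Dynlrb2, a dynein light chain, stood at 3.19, 1.51 and 1.25 CPM against 0.0711, 0.138 and 0.278 CPM (-3.45 ± 0.59). Dnah6, another heavy chain and not a list member, stood at 13.1, 7.38 and 6.28 CPM against 2.13, 2.75 and 2.34 CPM (-1.88 ± 0.32). In each of these genes every FOXP2 mouse lay below every GFP mouse.

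Rsph1, a radial spoke protein, stood at 10.2, 7.19 and 11 CPM in GFP mice and at 1.35, 3.51 and 3.40 CPM in FOXP2 mice (-1.77 ± 0.35, edgeR adjusted p = 0.587). Unlike the dyneins it was not highest in GFP mouse 1. The coiled-coil gene Ccdc153 was listed at 0 in the moFoxp2 mouse and huFOXP2 mouse 1 and at 0.390 CPM in huFOXP2 mouse 2, against 5.62, 2.22 and 1.35 CPM in GFP mice. Tekt1, a tektin of the ciliary microtubules, had 3.64, 2.08 and 1.09 CPM against 0.142, 0.207 and 0.557 CPM. The members that overlapped between groups were Mlf1 (2.18 to 4.33 against 1.58 to 2.28 CPM) and Mcidas (0.531 to 1.18 against 0.275 to 1.23 CPM), a regulator of early multiciliated cell formation. Outside the list, Lrrc23 (-3.77 ± 0.53) and Hydin (-3.0 ± 0.45), both cilia genes chosen after their values were seen, were also lower without overlap.

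Summed over the 14 genes, CPM was 82.4, 44.3 and 35.9 in L5-6 of GFP mice 1 to 3 and 8.47, 10.4 and 15.5 in the FOXP2 mice. In the other layers FOXP2 and GFP mice overlapped, with 12.2 to 16.1 in L2-3 and 7.44 to 21.5 in L4. The high libraries were thus the 3 GFP L5-6 libraries, and the FOXP2 L5-6 libraries lay within the range of the other layers. For Foxj1 the FOXP2 effect in L5-6 minus that in L2-3 was -2.48 ± 0.47 (edgeR with the mouse as a block, adjusted p = 0.00989). That call was lost without the mouse block, where 0 genes passed, and without huFOXP2 mouse 1, where 1 gene passed, in the positive direction. Minus the effect in L4 it was -1.23 ± 0.50, which did not pass (edgeR adjusted p = 0.803). With each mouse left out, the list median ran from -3.68 (without huFOXP2 mouse 2) to -2.37 (without GFP mouse 1).

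**Figure D3:**
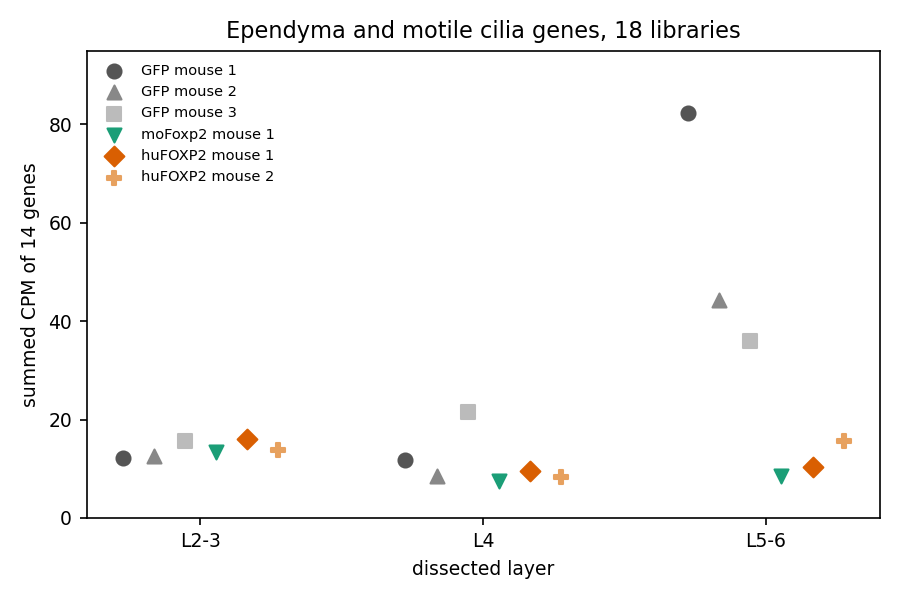
Summed CPM of the 14 ependyma and motile cilia genes (y axis) in each of the 18 libraries by layer (x axis), with GFP mice in grey and FOXP2 mice in green and orange. The 3 GFP L5-6 libraries sit at 35.9 to 82.4, above all other libraries, which lie between 7.44 and 21.5.

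Tissue next to L5-6 was examined through its own markers. Choroid plexus, a secretory tissue of the ventricles, had a summed level of 4.49 to 7.99 CPM in GFP mice and 3.01 to 8.13 CPM in FOXP2 mice over 7 markers, which overlapped. Its 3 tested markers all lay below 0 (median -0.62) and overlapped. Others were too low to test. The folate receptor gene Folr1 had 20, 7 and 13 counts in GFP mice and 1, 0 and 2 in FOXP2 mice. It was lower in every FOXP2 mouse than in every GFP mouse. Kl (7, 6 and 13 against 10, 9 and 4 counts) and Kcne2 (2, 3 and 3 against 1, 1 and 2) overlapped. Otx2 had counts in huFOXP2 mice 1 and 2 only (12 and 5). The 12 striatal neuron markers summed to 204 to 385 CPM in GFP mice and 223 to 252 CPM in FOXP2 mice. Of 11 tested, 9 lay below 0 with a median of -0.75 (-0.47 without GFP mouse 1), and Rgs9 and Tac1 were lower without overlap (2 of 11, against 6.97% of all genes). Without GFP mouse 2, 7 of 11 were lower without overlap, where 15.8% of all genes were. The striatal marker too low to test, Isl1, had 21, 7 and 18 counts in GFP mice and 1, 3 and 1 in FOXP2 mice. It was lower in every FOXP2 mouse than in every GFP mouse. Rgs9, a regulator of G protein signalling in striatal neurons, stood at 47.8, 39.4 and 34.6 CPM in GFP mice and at 26.0, 21.1 and 24.9 CPM in FOXP2 mice (-0.75 ± 0.15, edgeR adjusted p = 0.520). The neuropeptide gene Tac1 stood at 18.8, 4.07 and 7.74 CPM against 3.06, 3.30 and 3.62 CPM (-1.59 ± 0.51), highest in GFP mouse 1, and the dopamine receptor gene Drd1 lay at -0.08 ± 0.14. The part of tissue carried over at dissection in the cilia gene differences was not tested.

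Short sequences upstream of the cilia genes were read because Foxj1 and RFX factors are known to act together on such promoters. RFX factors bind the X-box, of which GTTGCC is a core, and forkhead factors bind TGTTTAC. The RefSeq promoter table (GRCm38.p6, from 250 bases before to 50 after a start) held 11 of the 14 genes, with 15 promoters. GTTGCC stood on either strand in 6 of 15 promoters (40%) and in 12.5% of all 32851 promoters. TGTTTAC stood in 2 of 15 (13.3%) and in 3.65% of all promoters. The motifs do not overlap each other in these promoters. A match is a description of letters and not a bound site. Examples with the motif in capitals are Ccdc153 at chr9:44240427-44240726 (plus strand), Dynlrb2 at chr8:116504765-116505064 (plus strand) and Tekt1 at chr11:72361833-72362132 (minus strand), in which capitals mark GTTGCC or its reverse complement, and Ak7 at chr12:105705732-105706031 (plus strand), in which they mark TGTTTAC.
Ccdc153: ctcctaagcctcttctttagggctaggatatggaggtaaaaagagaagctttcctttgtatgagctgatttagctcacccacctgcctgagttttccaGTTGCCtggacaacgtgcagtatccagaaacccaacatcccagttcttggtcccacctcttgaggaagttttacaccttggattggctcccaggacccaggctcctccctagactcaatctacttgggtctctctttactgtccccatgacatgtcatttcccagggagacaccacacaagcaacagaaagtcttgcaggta
Dynlrb2: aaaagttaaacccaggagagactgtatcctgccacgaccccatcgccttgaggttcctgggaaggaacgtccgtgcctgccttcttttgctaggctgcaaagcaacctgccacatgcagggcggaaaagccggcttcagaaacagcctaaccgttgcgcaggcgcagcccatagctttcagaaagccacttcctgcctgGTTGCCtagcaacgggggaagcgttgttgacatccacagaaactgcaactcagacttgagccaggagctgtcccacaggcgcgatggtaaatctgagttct
Tekt1: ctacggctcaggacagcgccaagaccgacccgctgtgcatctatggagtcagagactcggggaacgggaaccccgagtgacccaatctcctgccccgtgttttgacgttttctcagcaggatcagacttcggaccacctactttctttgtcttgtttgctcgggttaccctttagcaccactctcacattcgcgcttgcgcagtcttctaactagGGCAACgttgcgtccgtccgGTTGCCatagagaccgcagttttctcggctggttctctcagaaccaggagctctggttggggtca
Ak7: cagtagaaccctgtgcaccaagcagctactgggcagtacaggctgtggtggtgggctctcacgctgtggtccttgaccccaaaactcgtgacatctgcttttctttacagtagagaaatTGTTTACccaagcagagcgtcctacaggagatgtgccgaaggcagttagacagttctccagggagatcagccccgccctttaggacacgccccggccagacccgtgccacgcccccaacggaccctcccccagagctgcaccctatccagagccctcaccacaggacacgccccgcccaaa
Ak7, an adenylate kinase of motile cilia, stood at 9.34, 3.64 and 1.82 CPM in GFP mice and at 0.213, 0.138 and 0.613 CPM in FOXP2 mice (-3.82 ± 0.76), again with every FOXP2 mouse below every GFP mouse.

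Markers of the neurons of layers 5 and 6 lay closer to 0, and 0 members of any layer list passed the adjusted edgeR threshold. Of 10 markers of layer 6 corticothalamic neurons, 9 lay below 0 with a median of -0.26, and 0 of 10 were without overlap (13.5% of all genes). Tbr1, a transcription factor of deep-layer neurons, stood at 130, 204 and 149 CPM in GFP mice and at 132, 118 and 156 CPM in FOXP2 mice (-0.25 ± 0.18). Syt6, a synaptotagmin of corticothalamic neurons, stood at 108, 129 and 81.8 CPM against 66.4, 57.6 and 106 CPM (-0.47 ± 0.25). For both genes huFOXP2 mouse 2 lay among the controls and huFOXP2 mouse 1 was lowest. Leaving out GFP mouse 1 or 2 gave a list median of -0.40 or -0.04. Leaving out huFOXP2 mouse 1 gave -0.10, and leaving out huFOXP2 mouse 2 gave -0.39, where 4 of 10 were lower without overlap (12.3% of all genes). Of 8 markers of layer 6b and subplate neurons, 8 lay below 0 (median -0.16), from -0.79 for Lpar1, a lysophosphatidic acid receptor, to -0.01 for Cplx3, a complexin. That median was -0.01 without huFOXP2 mouse 1 and -0.52 without huFOXP2 mouse 2, and in the last setting 4 of 8 were lower without overlap (12.3% of all genes).

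Layer 5 lists leaned the other way. Of 9 markers of subcortical projection neurons, 7 lay above 0 (median 0.11, and -0.04 without GFP mouse 1 or huFOXP2 mouse 2). Pou3f1, a POU domain transcription factor, was the 1 of 9 higher without overlap (6.53% of all genes). Pou3f1 stood at 20.1, 43.7 and 65.2 CPM in GFP mice and at 69.1, 94.3 and 69.8 CPM in FOXP2 mice (0.85 ± 0.36), with GFP mouse 3 close to the FOXP2 mice. Bcl11b, a transcription factor of the same neurons, lay at -0.05 ± 0.14 and Fezf2, which specifies them, at 0.39 ± 0.28. Crym, the other marker of this list below 0 besides Bcl11b, lay at -0.30 ± 0.32. Of 9 markers of intratelencephalic and near-projecting neurons, 7 lay above 0 (median 0.25, 0.15 without GFP mouse 1 and 0.14 without huFOXP2 mouse 2). Among them Etv1, an ETS transcription factor of layer 5, stood at 40.9, 48.5 and 47 CPM in GFP mice and at 65.2, 61.4 and 58.3 CPM in FOXP2 mice (0.44 ± 0.10, adjusted p = 0.638 by edgeR), a clear gap between groups that did not pass. Etv1 was the 1 of 9 in that list higher without overlap (6.53% of all genes). The largest difference in the list went the other way. Slc17a8 stood at 7.29, 15.8 and 4.10 CPM in GFP mice and at 4.62, 3.30 and 4.79 CPM in FOXP2 mice. It lay at -1.10 ± 0.46 and overlapped between groups.

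Markers of the layers above were also present in these libraries and mostly lay above 0. This held for 7 of 8 layer 4 markers (median 0.41) and 10 of 11 layer 2-3 markers (median 0.47). Rorb, a nuclear receptor of layer 4, stood at 43, 45.3 and 131 CPM in GFP mice and at 102, 162 and 89.7 CPM in FOXP2 mice (0.69 ± 0.43). GFP mouse 3 lay among the FOXP2 mice for Rorb, and the summed layer 4 list overlapped, at 283 to 661 CPM against 479 to 823 CPM. Lamp5, a lysosome-associated membrane protein, was the 1 of 11 layer 2-3 markers higher without overlap (6.53% of all genes), at 9.79, 8.75 and 9.45 CPM against 11.7, 19.4 and 14.6 CPM (0.71 ± 0.20). With each mouse left out, the layer 4 median ran from 0.18 (without huFOXP2 mouse 1) to 0.72 (without GFP mouse 3), and the layer 2-3 median from 0.30 (without GFP mouse 1) to 0.67 (without GFP mouse 3). Without GFP mouse 3, 6 of 8 layer 4 and 8 of 11 layer 2-3 markers were higher without overlap (13.1% of all genes). Without huFOXP2 mouse 2 the layer 2-3 count was 7 of 11 (11.8% of all genes). The part of the dissection border in the layer marker differences was not tested.

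**Figure D4:**
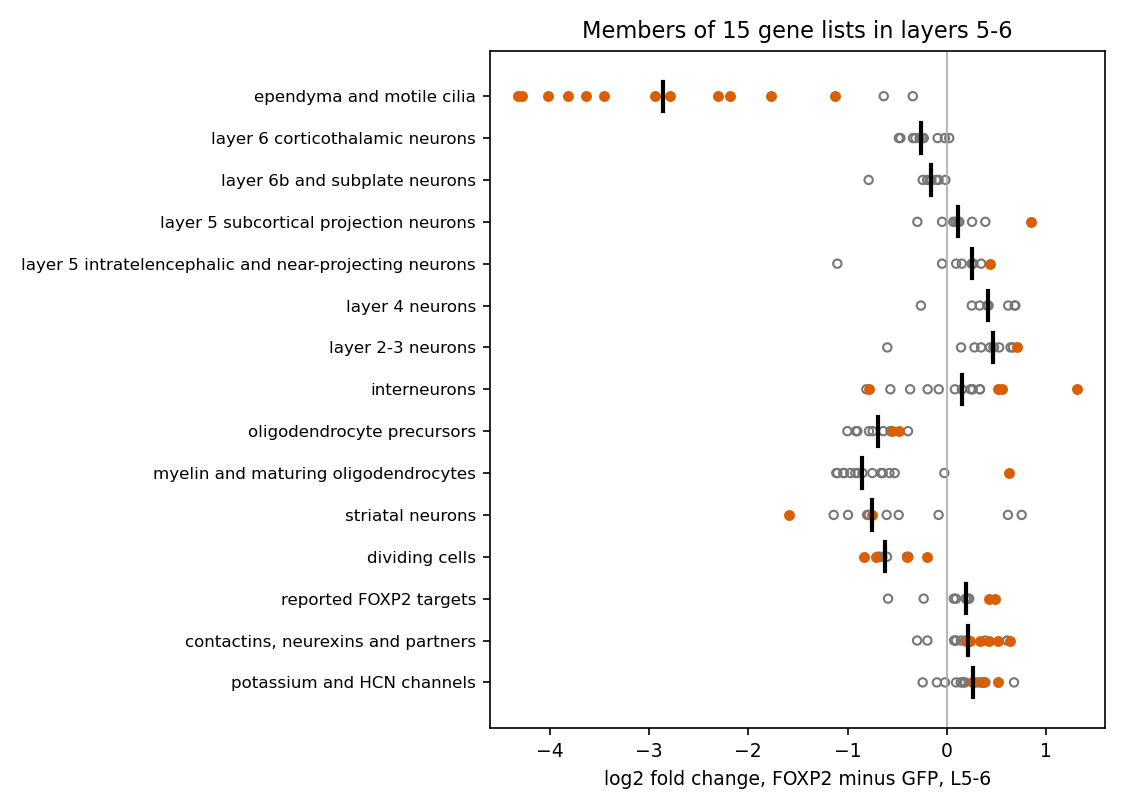
Log2 fold change (FOXP2 minus GFP, L5-6, x axis) of every tested member of 15 gene lists (y axis). Filled orange points are members whose FOXP2 and GFP libraries did not overlap, open grey points those that overlapped, and black bars the list medians, which run from -2.86 for ependyma and motile cilia to 0.47 for layer 2-3 neurons.

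Interneurons, the cortical cells that release GABA, had 9 of 15 markers above 0 (median 0.15), with 3 higher and 1 lower without overlap (6.53% and 6.97% of all genes). The median ran from 0.09 without GFP mouse 2 to 0.32 without GFP mouse 3. Vip, the neuropeptide of a class of upper-layer interneurons, stood at 4.56, 3.92 and 6.96 CPM in GFP mice and at 13.6, 16.2 and 8.63 CPM in FOXP2 mice (1.31 ± 0.30, edgeR adjusted p = 0.638). Every FOXP2 mouse lay above every GFP mouse. Lhx6, a transcription factor of interneurons from the medial ganglionic eminence, stood at 24.7, 33.4 and 39.7 CPM against 47.3, 42.5 and 50.5 CPM (0.52 ± 0.17). The secreted glycoprotein gene Reln also separated the groups (0.56 ± 0.27), while Gad1, the GABA-synthesizing enzyme, overlapped (0.26 ± 0.15). The other 6 of 15 markers lay below 0, down to -0.81. Among these Npy lay at -0.37 ± 0.17 and overlapped.

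Glial and dividing-cell genes lay below 0, with values that moved with GFP mouse 1. Of 10 markers of oligodendrocyte precursors, the dividing progenitors of myelinating cells, 10 lay below 0 (median -0.69), and Pdgfra and Cspg4 were lower without overlap (2 of 10, against 6.97% of all genes). Pdgfra, their growth factor receptor, stood at 436, 263 and 275 CPM in GFP mice and at 240, 234 and 224 CPM in FOXP2 mice (-0.48 ± 0.19). Of 15 tested myelin genes, 14 lay below 0 (median -0.85), and 0 were lower without overlap. Ermn, a myelin cytoskeletal gene, was the 1 member above 0 (0.63 ± 0.25). Without GFP mouse 1 the medians were -0.26 for both lists. Without GFP mouse 2 they were -0.90 and -1.23, and 9 of 10 and 11 of 15 genes were lower without overlap, where 15.8% of all genes were.

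Of 10 genes of dividing cells, 10 lay below 0 (median -0.63) and 4 were lower without overlap (6.97% of all genes). Top2a, a topoisomerase of the cell cycle, stood at 80.2, 40 and 40.2 CPM in GFP mice and at 36.1, 29.0 and 24.8 CPM in FOXP2 mice (-0.83 ± 0.28). Mki67, the proliferation antigen, stood at 76.1, 40.8 and 37.7 CPM against 36.4, 32.2 and 25.1 CPM (-0.72 ± 0.27). In both genes GFP mouse 1 was far above the other controls, which lay close above the FOXP2 mice. Without GFP mouse 1 the list median was -0.17.

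**Figure D5:**
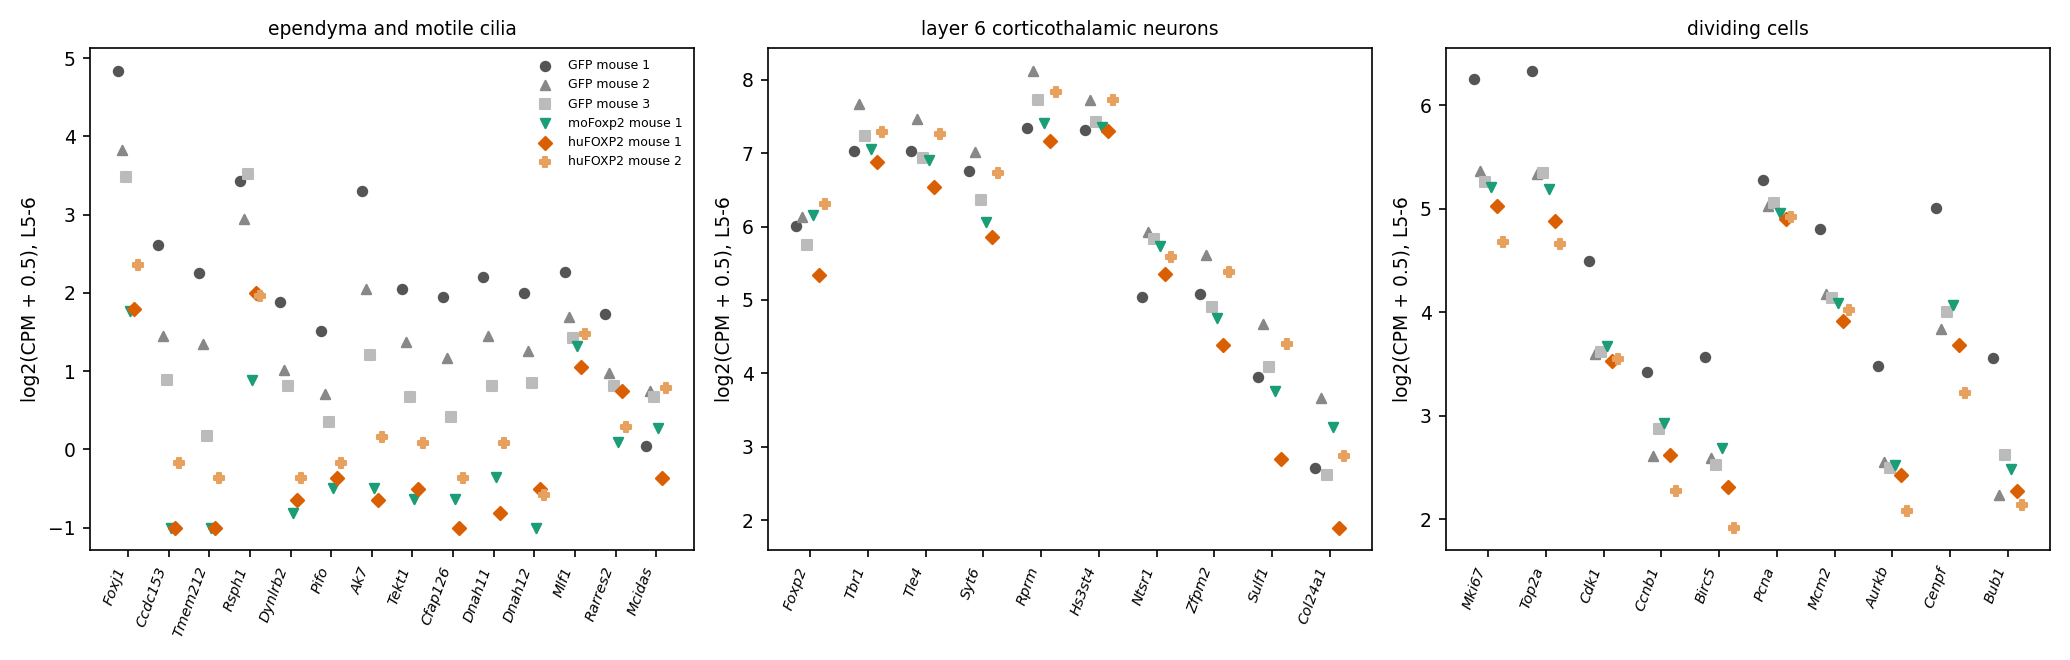
Level of each member as log2(CPM + 0.5) (y axis) in the 6 L5-6 libraries for 3 gene lists (x axis), with GFP mice in grey and FOXP2 mice in green and orange. Most ependyma and motile cilia genes separate the groups, layer 6 corticothalamic markers mix them, and GFP mouse 1 (dark circles) is highest for every dividing-cell gene shown.

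Of the 10 reported FOXP2 targets 9 were tested, 7 lay above 0 (median 0.19, and 0.12 without GFP mouse 1) and 2 were higher without overlap (6.53% of all genes). Cntnap2 (ENSMUSG00000039419.17), a neurexin-family adhesion protein, stood at 80.1, 106 and 117 CPM in GFP mice and at 131, 147 and 129 CPM in FOXP2 mice (0.42 ± 0.15, edgeR adjusted p = 0.713). Its annotated span overlaps 28 other genes, 4 of them antisense. Mef2c, a transcription factor of synapse development, stood at 652, 1263 and 1321 CPM against 1453, 1591 and 1495 CPM (0.49 ± 0.25). GFP mouse 1 was far below the other controls for Mef2c. Ntn1, an axon guidance cue, lay at -0.59 ± 0.24 and Vldlr, a reelin receptor, at 0.19 ± 0.10.

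Contactins, neurexins and their partners are adhesion proteins that join axons, glia and synapses. Of 17 members 15 lay above 0 (median 0.21), and 6 were higher without overlap (6.53% of all genes). Cntn6 stood at 33.4, 52.0 and 45.2 CPM in GFP mice and at 62.5, 58.0 and 66.9 CPM in FOXP2 mice (0.52 ± 0.16). Cntn3 stood at 16.9, 34.7 and 38.9 CPM against 48.3, 53.8 and 39.6 CPM (0.64 ± 0.28), with GFP mouse 3 next to huFOXP2 mouse 2. The abundant Cntn1 overlapped (0.09 ± 0.15). Of 18 potassium and HCN channel genes, which set neuronal excitability, 15 lay above 0 (median 0.26) and 3 were higher without overlap, among them Kcnq5 at 57.3, 93.0 and 98.6 CPM against 112, 122 and 124 CPM (0.52 ± 0.19). Without GFP mouse 1 the medians were 0.09 and 0.12.

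Beyond the lists, the protein-coding genes of smallest p whose groups did not overlap gave 12 genes in each direction, with edgeR adjusted p of 0.422 to 0.710, so 0 of them passed. Sypl2, a synaptophysin-like membrane protein, stood at 2.88, 3.69 and 2.86 CPM in GFP mice and at 6.89, 12.8 and 8.69 CPM in FOXP2 mice (1.58 ± 0.27). Cap2, an actin regulator, stood at 32.9, 36.2 and 35.9 CPM against 48.6, 67.4 and 59.0 CPM (0.74 ± 0.13). The controls lay close together for both genes, and huFOXP2 mouse 1 was highest. The chemokine gene Ccl28 (1.44 ± 0.34), Cpne8, a copine (0.78 ± 0.18), Stxbp6, a syntaxin-binding protein (0.76 ± 0.19), Tmem230 (0.58 ± 0.15), Rgl1, a Ral exchange factor (0.49 ± 0.11), Bok, a BCL2-family protein (0.46 ± 0.11), Exoc8, an exocyst subunit (0.41 ± 0.10), and Ppm1l, a protein phosphatase (0.41 ± 0.10), were the others besides Vip and Etv1.

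On the lower side stood Foxj1, Dnah6, Rsph1 and Rgs9, given above, and Dnah5, a heavy chain of the outer dynein arm, at 11.1, 9.65 and 7.94 CPM in GFP mice and 5.12, 5.09 and 5.23 CPM in FOXP2 mice (-0.89 ± 0.18). Celsr1, a planar polarity cadherin, stood at 24.7, 16.5 and 13.1 CPM against 7.60, 2.82 and 7.13 CPM (-1.62 ± 0.37). The FOXP2 mice were nearly equal for Dnah5 and spread for Celsr1, with huFOXP2 mouse 1 lowest. Padi2, a peptidylarginine deiminase (-1.56 ± 0.36), the fibrillin gene Fbn2 (-1.09 ± 0.23), Naaa, an acid amidase (-0.85 ± 0.19), E130311K13Rik (-0.85 ± 0.19), Piezo1, a mechanosensitive channel (-0.75 ± 0.14), and Nit2, an amidase (-0.59 ± 0.14), completed the set. DESeq2 called 11 of these 12 lower genes, all but Nit2, and 4 of the 12 higher ones (Cap2, Ccl28, Sypl2 and Vip). It called 56 genes in all (6 higher and 50 lower). The genes were picked by p from the same libraries, so these calls are no separate test. EdgeR called 0 of them with RLE scaling, sex or the myelin score as a term, or any mouse left out. It called 2 lower and 1 higher in the fit over 18 libraries, and 11 and 7 without a filter.

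The FOXP2 effect in L5-6 differed from that in L2-3 for 2457 of 15952 genes (15.4%), 1076 with a more positive effect in L5-6 (6.75%) and 1381 with a more negative one (8.66%), by edgeR with the mouse as a block. This count was 1 without huFOXP2 mouse 1 and 0 without the mouse block. It was 1385 for the 5 mice left when GFP mouse 1 was dropped, and 1001, 1129 and 1402 when GFP mouse 3, moFoxp2 mouse 1 or huFOXP2 mouse 2 was. Positive calls covered 9 of 11 layer 2-3 markers, 5 of 8 layer 4 markers, 11 of 18 potassium and HCN channels and 8 of 17 contactins and partners. They also covered 7 of 12 GABA-A receptor subunits and 8 of 17 genes of synaptic vesicle release. Negative calls covered 5 of 10 oligodendrocyte precursor markers, 6 of 10 genes of dividing cells and 7 of the 13 ependyma and motile cilia genes tested over the layers. Shares were as large in other lists, with 8 of 10 endothelial, 7 of 12 astrocyte, 5 of 8 pericyte and smooth muscle and 4 of 4 red blood cell markers. Of 18 cytosolic ribosomal protein genes, 10 had negative calls.

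On the scale of all 18 libraries Mef2c stood at 1880, 2863 and 2777 CPM in L2-3 of GFP mice and at 1743, 1876 and 2367 CPM in L2-3 of FOXP2 mice. In L5-6 the FOXP2 mice were the higher ones, and the difference between layers was 0.88 ± 0.15 (edgeR adjusted p = 0.0095). Rorb stood at 207, 87.8 and 124 CPM in L2-3 of GFP mice and at 59.5, 46.8 and 41.7 CPM in L2-3 of FOXP2 mice, with a difference between layers of 2.27 ± 0.49 (adjusted p = 0.0138). For Cntn6 it was 0.89 ± 0.13 and for Cntnap2 0.44 ± 0.10 (adjusted p = 0.0084 and 0.0168).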

How the data were processed

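RNA was sequenced from layers dissected from 6 mice. The authors deposited raw read counts per gene for 54446 genes in 18 libraries, whole numbers with no normalization. STAR, HTSeq and the mm10 genome are named, per the submitters' processing notes. Versions, the strand setting and the counting of multi-mapping reads are each not given in the sources used here, so near-identical, overlapping and antisense genes are uncertain.

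The 6 L5-6 libraries (12704557 to 21462671 counts) entered edgeR 4.0.16 (R 4.3.3), whose quasi-likelihood F test was run with TMM scaling, filterByExpr (minimum count 10, minimum total 15) and Benjamini-Hochberg adjustment over all genes at a threshold of 0.05. Standard errors are |log2 fold change| over the root of F. CPM uses TMM-scaled totals unless stated, as mean or value per mouse. Differences between layers were tested over 18 libraries with the mouse as a block. The edgeR step was tested on simulated data.

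The alternatives were RLE scaling, no filter, a filter of 1 CPM in 3 libraries, DESeq2 1.42.0, a fit over 18 libraries, sex or a myelin score as a term, a replicate block, and each mouse left out. The 39 lists (438 genes) and the members were chosen with earlier results of these data known, and lists are described by counts and medians beside those of all genes. Named genes were the Foxp family and Cntnap2, every gene past the threshold, the 12 protein-coding genes per direction of smallest p without overlap and with a mean of at least 5 CPM, and of each of the described lists its first member and up to 4 of smallest p. Fabp5, Rpsa, Rplp1, Lrrc23, Hydin, Ccdc153, Tekt1, Mlf1, Ak7 and Mcidas were chosen after their values were seen. Gene positions are from GENCODE M21 (GRCm38, the build of mm10), which held 53229 of 54446 identifiers with their version and 54409 without. Relatives of pseudogenes were found with BLAST 2.17.0 (at least 90% identity over 80% of the transcript). Promoters are from RefSeq (GRCm38.p6).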

Additional observations from a re-analysis of the deposited data

Results flagged for a closer look

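The FOXP2 effect in L5-6 differed from that in another layer for 54 of the named genes, by edgeR with the mouse as a block. Values are the log2 effect in L5-6 minus that in the other layer. Foxp2 was the gene that differed from L4, by -2.71 (adjusted p = 0.0278). All others are against L2-3, where 2457 of 15952 genes passed, 1 without huFOXP2 mouse 1 and 0 without the mouse block. A difference can come from either layer. No explanation was tested.

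Of the introduced gene and its family, Foxp2 differed by -2.72 and Foxp1 by 0.79. Reported targets that differed were Cntnap2 (0.44), Mef2c (0.88), Vldlr (0.48) and Ntn1 (-1.06). Among adhesion and channel genes the effect in L5-6 was the more positive for Cntn6 (0.89), Cntn3 (1.06), Nlgn3 (0.44), Kcnq5 (1.0), Kcnh1 (1.35) and Kcnc1 (0.43). Among upper-layer and layer 4 markers this held for Rorb (2.27), Unc5d (1.52), Coch (1.02), Cux1 (0.72), Lamp5 (0.64), Mdga1 (1.03), Pou3f2 (0.62) and Calb1 (1.14). Layer 5 markers with a more positive effect in L5-6 were Pou3f1 (1.37), Bcl6 (0.75) and Il1rapl2 (1.49).

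The effect in L5-6 was the more negative for the cilia genes Foxj1 (-2.48), Dnah6 (-1.62), Dnah12 (-4.69), Lrrc23 (-4.00), Hydin (-2.93) and Tekt1 (-3.05). Glial and dividing-cell genes in the same direction were Pdgfra (-0.82), Cspg4 (-0.86), Sox10 (-0.99), Myrf (-1.62), Mki67 (-0.74), Top2a (-0.96) and Mcm2 (-0.61). Neuronal markers in that direction were Sulf1 (-1.59), Slc17a8 (-1.20), Npy (-0.82), Rgs9 (-0.70) and Tac1 (-1.65). The genes of smallest p in L5-6 that also differed between layers were Sypl2 (1.22), Cap2 (0.62), Rgl1 (0.60), Vip (1.17), Cpne8 (0.59), Ppm1l (0.65), Exoc8 (0.42) and Stxbp6 (1.19) with a more positive effect in L5-6, and Fbn2 (-1.72), Naaa (-1.02), Padi2 (-3.29) and Celsr1 (-2.18) with a more negative one. The pseudogene Rpsa-ps10 was lower in FOXP2 mice in all 3 layers and more so in L5-6 than in L2-3 (by -0.50).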

How the results depend on the processing

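The 3 calls in L5-6 were 3 genes with RLE scaling, the stricter filter, sex or the myelin score as a term, and 2 to 4 with each mouse left out. They were 323 without a filter (80 higher and 243 lower, 272 among the genes tested otherwise), 56 with DESeq2 (6 and 50) and 17 in the fit over 18 libraries (3 and 14). The cause of these differences was not tested. Gm6166 and Rpsa-ps10 passed in every alternative, and Gm11942 in all but 2. For the effect in L5-6 minus that in L4, 1 gene passed, 0 without the mouse block and 0 to 2 with a mouse left out. For L5-6 minus L2-3, 2457 genes passed, 2413 with RLE scaling, 0 without the mouse block and 1 to 3414 with a mouse left out.

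GFP and huFOXP2 mice share only a replicate number. Over genes, deviations from the group means correlated at -0.12 for the pair numbered 1 and 0.19 for the pair numbered 2. With a replicate block over numbers 1 and 2, 45 genes passed (18 higher and 27 lower), and 2 over the same 4 libraries without a block. With the replicate block Foxp2 was at -0.23 and Rplp1 at -0.011, and without it over the same mice -0.16 and -0.017, with Cplx3 at 0.063.

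Foxp2 was at -0.022 with sex as a term and at -0.16 to 0.27 with a mouse left out. With the myelin score as a term, Foxp1 was at -0.065, Foxp4 at -0.10, Drd1 at 0.024 and Cntn1 at -0.048, and without a filter Cplx3 was at 0.0037. Other differences that changed sign with a mouse left out, none past the threshold, had these ranges: Foxp1 -0.078 to 0.18, Foxp4 -0.068 to 0.26, Cplx3 -0.60 to 0.30, Nxph3 -0.54 to 0.0049, Moxd1 -0.33 to 0.040, Nr4a2 -0.25 to 0.031, Bcl11b -0.21 to 0.062, Bcl6 -0.039 to 0.45, Crym -0.56 to 0.17, Parm1 -0.027 to 0.42, Drd1 -0.18 to 0.0068, Cntn1 -0.025 to 0.24, Kcna1 -0.47 to 0.079 and Rplp1 -0.054 to 0.093. Of the other alternative values for single genes and medians, 1931 kept direction and side of the threshold or stayed within the spread, 75 passed the threshold only under the alternative, 2 were lost (both Gm11942) and 32 moved. Low counts limit the cilia genes.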

Other observations

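Some lists of synaptic and energy genes that the report does not describe lay mostly above 0 in L5-6 of FOXP2 mice, by small amounts. Of 17 genes of synaptic vesicle release, 17 lay above 0 (median 0.23, and 0.10 without GFP mouse 1). Of these, 0 passed the adjusted edgeR threshold and 3 were higher at an unadjusted p under 0.05 (1.99% of all genes). Snap25, a core protein of vesicle fusion, stood at 461, 746 and 673 CPM in GFP mice 1 to 3 and at 773, 876 and 882 CPM in the moFoxp2 mouse and huFOXP2 mice 1 and 2 (0.43 ± 0.18). Syt4, a synaptotagmin, stood at 96.8, 182 and 263 CPM against 267, 304 and 274 CPM (0.64 ± 0.30). GFP mouse 1 was the lowest library for both genes. Of 12 GABA-A receptor subunits, 11 lay above 0 (median 0.24, and 0.06 without GFP mouse 1). Gabrd, the delta subunit of extrasynaptic receptors, stood at 16.1, 19.4 and 23.6 CPM against 24.9, 35.5 and 37.4 CPM (0.72 ± 0.19), with no overlap between groups. Of 18 nuclear genes of oxidative phosphorylation, 18 lay above 0 (median 0.12, and 0.10 without GFP mouse 1), and 5 were higher without overlap (6.53% of all genes). Cycs, cytochrome c, stood at 45.6, 53.4 and 56.1 CPM against 59.6, 68.1 and 62.3 CPM (0.29 ± 0.11). Of 4 neurofilament and internexin genes, 4 lay above 0 (median 0.34), and 0 were without overlap (13.5% of all genes). Not every list of this kind leaned that way. Of 7 tested mitochondrially encoded genes, 7 lay below 0 (median -0.21). The 14 ionotropic glutamate receptor genes were split, with 8 above 0 and 6 below (median 0.08).

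On the lower side, Crabp1, which binds retinoic acid in the cytosol, stood at 7.97, 1.70 and 3.79 CPM in GFP mice and at 0.782, 0.826 and 0.668 CPM in FOXP2 mice (-2.53 ± 0.57), without overlap. By DESeq2 1 of the 13 tested genes of the retinoic acid pathway passed (56 of all 15330 genes did). By edgeR 0 passed in the main fit. In the edgeR fit over 18 libraries 1 passed (17 of 15952 genes did), and without a filter 2 (323 of 29074 did). The genes named in this section were chosen after their values were seen. Of 18 cytosolic ribosomal protein genes, 16 lay below 0 (median -0.13, and -0.04 without GFP mouse 1). Astrocyte, microglia and endothelial lists had medians of -0.38, -0.34 and -0.22, which were -0.01, 0.10 and -0.03 without GFP mouse 1. The photoreceptor list summed to 31.6 CPM in huFOXP2 mouse 1 and to 3.75 to 5.35 CPM in the other 5 libraries.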
